A study of Drosophila melanogaster with 4 samples.

Results

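The subject is a set of 337 array spots that gave a strong signal in adult female fruit flies and a weak one in adult males, out of 21928 unflagged spots (1.54%) on an array of 22575. They were chosen by their signal in all 4 samples. For each spot and sample the net signal was the mean pixel intensity minus the mean local background, and the scaled net signal was this value divided by the median net signal of the unflagged spots of the same channel, so that a scaled net of 1 is the level of the channel's median spot. That median was 60.1 and 50.5 intensity units in females with and without wash, and 88.7 and 49.5 in males. A spot was taken when its scaled net was at least 5 in both female samples and at most 125% of the median spot's level in both male samples. The female and male values therefore describe the selection and are given without a test.

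RNA of pooled adult Drosophila melanogaster was hybridised to 2 slides, each carrying a female and a male pool in different dyes. The with-wash slide carried females in Cy3 and males in Cy5, and the without-wash slide carried females in Cy5 and males in Cy3. All 4 pools came from intact flies of the same single genotype, and the series' design calls the 2 replicates of each sex independent. The genotype, the flies' age, the number of flies in a pool and the nature of the wash are not stated in the labels, and wash, slide and dye change together within each sex. The gene name field was blank at all 22575 spots, so spots are named by row and column, and sex could not be checked against marker genes.

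The ovary makes up a large part of an adult female fly. Its germline, nurse cells and follicle cells make maternally supplied transcripts, and yolk and eggshell transcripts that males need little or not at all. Yolk proteins are made in the female fat body as well. Males carry testes and accessory glands with transcripts of their own. RNA of a whole fly mixes all tissues, so that more cells of a type and more RNA per cell cannot be told apart. This is background, and none of the spots was assigned to a gene or tissue.

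In females the set was bright. The scaled net ran from 5.005 to 126 with a median of 8.26 in the with-wash sample, and from 5.56 to 225 with a median of 13.3 in the without-wash sample. In males it ran from 0.208 to 1.247 with a median of 0.732 in the with-wash sample, and from 0.345 to 1.24 with a median of 0.762 in the without-wash sample. The median spot of the set stood at the 91.3 and 92.1 percentiles of the female channels with and without wash, and at the 40.9 and 41.1 percentiles of the male channels. The set held 1.54% of the unflagged spots and gave 4.44% (with wash) and 4.73% (without wash) of the summed net signal in females, against 0.244% (with wash) and 0.227% (without wash) in males.

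**Figure D1:**
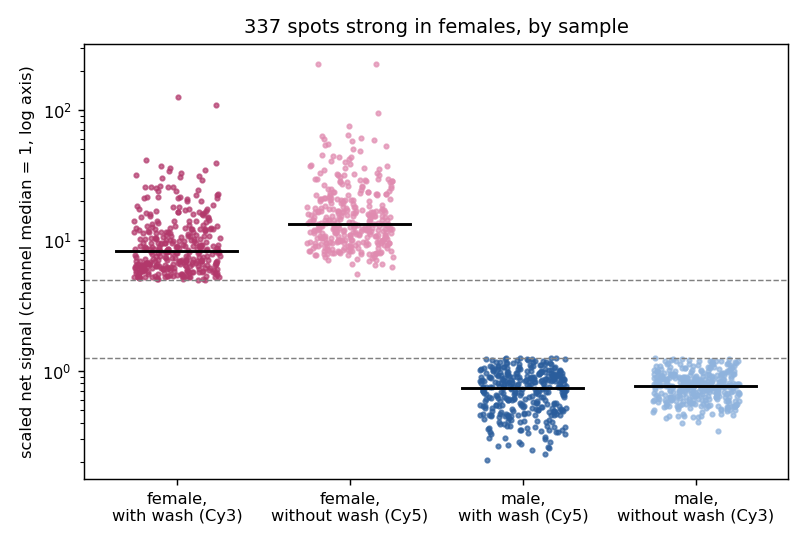
Scaled net signal of the 337 spots in each sample, on a log axis where 1 is the channel's median spot; each point is a spot, black bars are medians and dashed lines mark the limits of 5 and of 125% of the median spot. Medians are 8.26 and 13.3 in females and 0.732 and 0.762 in males, and the gap between the sexes is set by the selection.

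The male signals were low, and most were above the local background. With no negative control marked, a signal of 2 or more times the mean local background of the spot was counted as above background. By this count 276 of the 337 spots (81.9%) were above background in both male samples, 55 in only 1 of them and 6 in neither. Of the 55, 50 were below the limit with wash and 5 without. The median signal over background of the set was 2.63 in each male sample. In the with-wash male channel 16.6% of the set lay below the limit, against 26.1% of all unflagged spots, and in the without-wash male channel 3.26%, against 13.5%. At a limit of 3 times background 210 of the set were below it in both males. That limit is near the median signal over background of all unflagged spots in males, 3.22 with wash and 3.13 without. The share of all spots below it in both males was not counted, so the 210 are not read as particular to the set. Local background is a weak floor here: the lowest signal over background among all unflagged spots was 1.55 in the without-wash male channel and 0.895 in the with-wash one, so a signal above background does not show that a transcript was present in males. The values therefore describe the set as dim in males, and do not settle whether its transcripts were absent there. Only 14 spots were at or below a scaled net of 0.5 in both males, while 253 were at or below 1 in both and 20 were above 1 in both.

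For the 6 spots below the background limit in both males a reduced female to male ratio, here called the bound, was computed. The bound sets the mean of the normalized log2 female values against a male value that is, per sample, the higher of the spot's own value and the lowest value among spots above background. That lowest value was 5.72 with wash and 5.84 without (log2), so a spot could keep its own value from below the background limit. At row 88, column 18 the bound was 15.3-fold, against 15.5-fold from the spot's own values. The bound is thus near the measured ratio there, and is not a limit set by detection. The spot at row 17, column 31 had a scaled net of 13.96 and 24.05 in females with and without wash, and 0.307 and 0.441 in males. Its bound was 22.1-fold, female over male, the highest of the 6. The lowest was at row 49, column 53, at 6.84-fold. Its scaled net was 5.76 and 5.56 in females and 0.340 and 0.437 in males with and without wash.

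A pair of spots stood far above the rest in females. The spot at row 32, column 201 had a scaled net of 126 and 225 in females with and without wash, and 0.855 and 1.09 in males. It ranked 53rd and 62nd among all unflagged spots in the female channels with and without wash, and 11929th and 10418th in the male channels. The spot at row 64, column 61 had 108 and 223 in females with and without wash, and 1.23 and 1.23 in males. No other spot of the set reached 50 in both females, and the third brightest, at row 58, column 206, had 41.1 and 95.1 in females, against 0.514 and 0.820 in males.

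The next 7 spots by the lower female value lay close together. At row 21, column 118 the scaled net was 39.1 and 62.8 in females with and without wash, against 1.18 and 1.19 in males. At row 17, column 16 it was 36.9 and 61.2 in females, against 0.895 and 0.989 in males, and at row 19, column 9 it was 35.8 and 60.0 in females, against 0.566 and 0.728 in males. These 3 differed little in females, but the male value of the first was higher than that of the last on both slides. At row 103, column 79 it was 34.4 and 54.5 in females, against 0.928 and 0.701 in males. At row 47, column 46 the values were 34.1 and 75.3 in females, against about 1 and 0.588 in males, and at row 16, column 173 they were 32.9 and 57.7 in females, against 1.04 and 0.598 in males. For these 3 spots the male value was higher with wash, while the female value was higher without. The last of the 10, at row 52, column 149, had 31.4 and 63.6 in females, against 0.629 and 0.884 in males.

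Most of the set was much nearer the lower limit. A lower female value of 5 to under 10 was found at 219 spots, of 10 to under 20 at 85, of 20 to under 50 at 31 and of 50 or more at 2. The signal of a spot depends on its probe as well as on its transcript, so these classes order spot signals and not transcript amounts. Across the 337 spots, which are not replicates and were selected on these values, the log2 scaled net correlated with r = 0.25 between female and male of the with-wash slide and 0.28 between those of the without-wash slide. Across slides it was 0.24 (female with, male without wash) and 0.20 (female without, male with wash).

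The order of the spots repeated well between the female samples and less well between the male samples. Over the 337 spots r was 0.96 for the 2 female samples and 0.63 for the 2 male samples, where the selection left a far smaller range. Of the 10 brightest spots in each female sample 9 were shared, and of the 50 brightest 45. Of the 10 spots with the highest male value in each male sample 1 was shared, and of the 50 highest 19.

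Differences between the sexes were measured on normalized log2 signals, after background correction with an offset of 50 and loess normalization within slides. Between slides the whole distribution of each spot's average log intensity over both dyes was matched (Aquantile). Over the 337 spots the female minus male difference had a median of 3.35, a lowest value of 2.27 and a highest value of 6.97, which are folds of 10.2, 4.81 and 126. It was over 3 at 243 spots, over 4 at 71 and over 5 at 16. Over the other 21591 unflagged spots its median was 0.0023 and 90% of the values lay between -1.13 and 1.58. In limma, at a Benjamini-Hochberg adjusted p under 0.05, 18.3% of all tested spots were called higher in females. All 337 spots were among them, which the selection on the same contrast makes likely, and nothing is read from it.

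Each SE given here is from the limma fit, which takes slide as a block and draws on the variances of all spots. It is not the replicate error of the spot alone. The spot at row 32, column 201 averaged 13.45 ± 0.00063 in females and 6.47 ± 0.23 in males (log2, SD, n = 2 each), a difference of 6.97 (SE 0.13). Its small female SD holds after normalization only, as the scaled net was 126 with wash and 225 without. The spot at row 64, column 61 averaged 13.32 ± 0.14 in females and 6.70 ± 0.054 in males (log2, SD, n = 2 each), a difference of 6.62 (SE 0.090). The third, at row 58, column 206, averaged 12.04 ± 0.32 in females and 6.11 ± 0.36 in males (log2, SD, n = 2 each), a difference of 5.93 (SE 0.084), or 60.99-fold. Its 2 values within each sex were spread more widely than those of the first 2 spots, but both sexes were lower on the with-wash slide, by -0.45 in females and -0.51 in males, so its difference was about equal on both slides. The other 7 of the 10 largest differences lay between 5.25 at row 103, column 79 and 5.54 at row 19, column 9. The set of the 10 largest differences held 9 of the 10 brightest spots. The one that came in was row 39, column 155, with a scaled net of 30.1 and 59.1 in females with and without wash, against 0.505 and 0.690 in males, and a difference of 5.46.

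The differences on the 2 slides are given as a description, since the limits alone force a scaled net ratio of at least 4 on each slide. The median female minus male difference was 3.43 on the with-wash slide and 3.33 on the without-wash slide, and each of the 337 was above 2 on both. The lowest single-slide values were 2.24 with wash and 2.15 without wash. The difference was larger with wash at 225 of the 337 spots, the median gap between slides was 0.18 in size and the largest was 0.95. Across the spots the differences on the 2 slides correlated with r = 0.94. The within-sex SD of the normalized log2 values had a median of 0.13 in females and 0.18 in males, against 0.13 and 0.16 over all other spots.

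**Figure D2:**
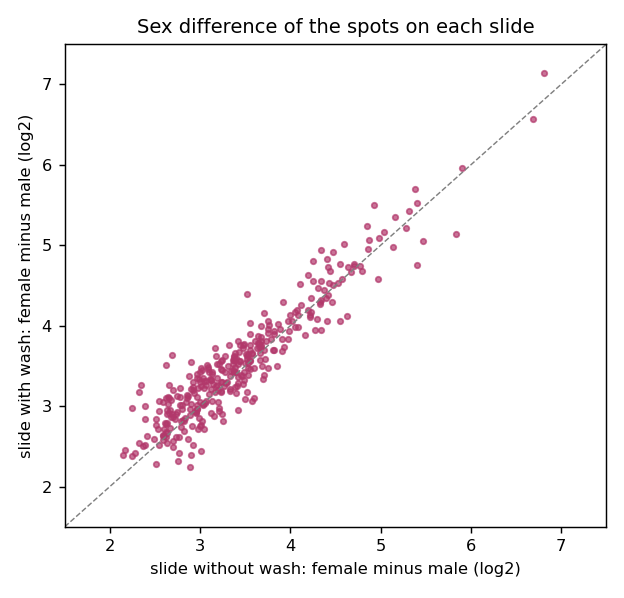
Female minus male difference (log2, normalized) of each of the 337 spots on the slide without wash (horizontal) and with wash (vertical), with a dashed line of equality. All points lie above 2 on both axes, and the highest point is the spot at row 32, column 201.

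The ratio of scaled net, female over male, ran from 4.38 to 147 with a median of 13.1 with wash, and from 6.45 to 207 with a median of 18.3 without wash, on values with no offset and no loess. It was over 10 on both slides at 238 spots. The male net signal, before scaling, had a median of 11.3% of the female net signal of the same spot with wash, with a range of 1.001% to 33.7%, and of 5.35% without wash, with a range of 0.474% to 15.2%. These percentages also carry the level of each channel. The median net of the male and female channels was 88.7 and 60.1 with wash, and 49.5 and 50.5 without.

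The set was placed among all spots that were bright in females. A scaled net of at least 5 in both females was found at 2652 spots, of which the 337 are 12.7%. At 1345 of the 2652 (50.7%) the higher male value was over 10, at 432 it was over 5 and up to 10, and at 172 it was over the limit of the set and up to 2. Within the set it was over 1 at 84 spots, over 0.75 and up to 1 at 137, over 0.5 and up to 0.75 at 102 and up to 0.5 at 14. The male limit thus ran through a continuous range of male levels.

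The mirrored set was far smaller. A scaled net of at least 5 in both males was found at 3301 spots, more than in females, but only 49 of these (1.48%) had at most 125% of the median spot's level in both females. The median scaled net of these 49 was 0.737 and 0.984 in females with and without wash, and 6.43 and 7.28 in males. Their median female minus male difference was -2.10 (log2). Of the 49, 32 were above 2 times background in both females, 16 in 1 and 1 in neither. In the with-wash female channel 2.04% of the 49 lay below this limit, against 8.21% of all unflagged spots. In the without-wash female channel it was 34.7%, against 44.9%. The imbalance between 337 and 49 was not tested, as the channels share slides and the counts follow from the limits. With limits of 4 and 1.5 the counts were 513 and 153, and with limits of 6 and 1 they were 203 and 12.

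**Figure D3:**
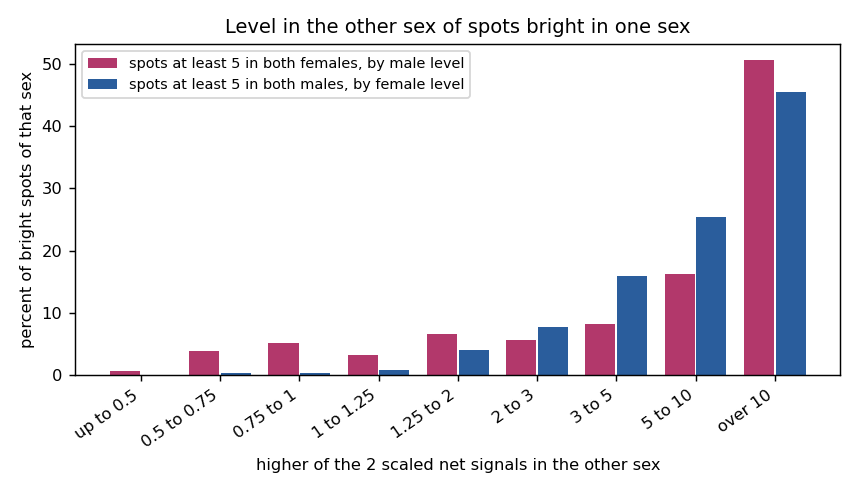
Percent of the 2652 spots bright in both females (dark red) and of the 3301 spots bright in both males (blue) by the higher of the 2 scaled net signals in the other sex. The 4 lowest bins hold 12.7% of the female-bright spots and 1.48% of the male-bright spots, and the bins run on without a gap.

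Differences between the slides and dyes were tested over all spots. The rule used the same 4 signals, and limits that must hold on both slides leave out spots that move strongly between them. A share in the set that is lower than over all other spots therefore partly follows from the selection. In females the scaled net was lower with wash at 328 of the 337 spots and higher at 9, with a median ratio of -0.73 (log2, with over without wash). The same ratio had a median of -0.82 over the other 2315 spots bright in both females, so a shift of about this size was also found outside the set. After normalization the median difference with minus without wash was -0.14 in females and -0.24 in males, against -0.049 and -0.098 over all other spots. Both sexes were lower with wash at 232 of the 337 spots (68.8%), against 50.3% of the other spots, and both were higher at 20. The mean slide difference was below 0 at 83.4% of the set, against 60.9% of the other spots. In limma 0 of the 337 and 0 of all 21928 spots (0%) passed an adjusted p of 0.05 for the slide term, where the smallest adjusted p in the set was 0.080. At an unadjusted p under 0.05 there were 71 (21.1%) in the set and 7791 (36.1%) among the other spots. Among the other 2315 spots bright in both females there were 227, a smaller share than in the set. The median slide difference of those 2315 was -0.0058, against -0.19 in the set, and 48.7% of them were above 0, against 16.6%. With median scaling in place of loess 2701 of all spots and 0 of the 337 passed. In the authors' value table, centred on each sample's median and also without loess, 2100 and 2 passed. These 2 of the set were lower with wash. With 1 slide per wash state a slide difference and a wash difference cannot be told apart.

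**Figure D4:**
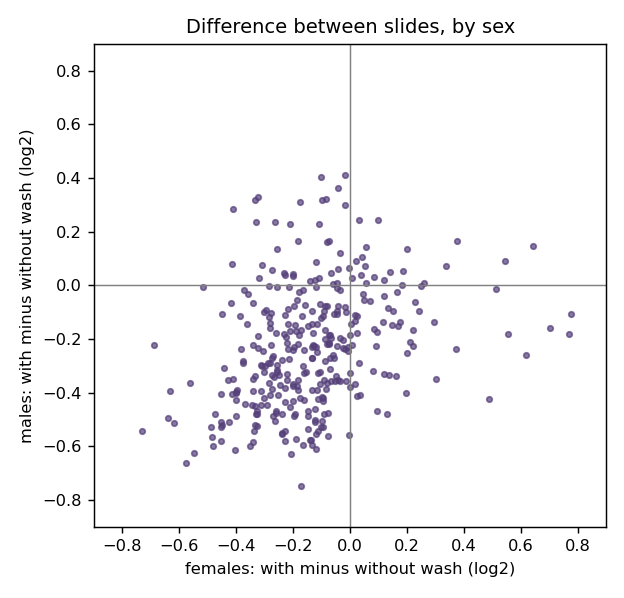
Difference with minus without wash (log2, normalized) of each of the 337 spots, in females (horizontal) and males (vertical). The lower left, where both sexes are lower with wash, holds 232 spots, and all values lie within 0.8 of 0.

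The spots named for their shift between the female samples were taken from both ends of the ratio of scaled net. Lowest with wash relative to without in scaled net were row 47, column 43, with 9.12 and 23.1 in females with and without wash, and row 57, column 204, with 5.84 and 13.8. Their male values were 0.724 and 1.21, and 0.606 and 0.661, also lower with wash. Highest relative to without were row 22, column 114, with 9.80 and 8.30 in females with and without wash, and row 96, column 64, with 9.85 and 8.37. Their male values were 0.823 and 0.724, and 0.703 and 0.668, also higher with wash. The female rise at these spots was 0.24 and 0.23 (log2 of scaled net), smaller in size than the set's median of -0.73. After normalization the female difference with minus without wash was -0.73 at row 47, column 43 and 0.77 at row 22, column 114, both smaller than the sex differences of these spots, 3.59 and 3.07. The male difference was then -0.54 at row 47, column 43, but -0.11 at row 22, column 114 and -0.18 at row 96, column 64, so the direction in males at the last 2 turned with normalization.

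The dye difference was not called at any of the 337 spots. Over all tested spots 2.13% were called for Cy3 minus Cy5 (limma, adjusted p under 0.05), 460 (2.1%) higher in Cy3 and 8 (0.0365%) higher in Cy5. In the set 0 were called, 0 had an unadjusted p under 0.05, and the values ran from -0.35 to 0.47 with a median of 0.049. A spot that follows the dye is high in 1 sample of each sex, so the limits in all 4 samples leave such spots out, and the count of 0 partly follows from the selection. The dye fit also had no slide term, so the slide difference of a spot entered its error and raised its p-value. In the set the slide difference had a median of -0.19, larger in size than the dye median. Because the dyes were exchanged, the Cy3 minus Cy5 contrast also asks whether the sex effect differed between the slides.

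The 337 spots were scattered over the array. They lay in 99 of 105 rows and 167 of 215 columns, with at most 10 in a row (row 21) and at most 8 in a column (column 129). Only 5 pairs were next to each other in a row and 7 in a column, and at each spacing of 1 to 15 columns within a row there were 3 to 8 pairs. In a grid of 9 blocks they made up 0.948% to 2.03% of unflagged spots, more in the middle columns (1.87% to 2.03%) than in the outer columns (0.948% to 1.73%). The corner of the without-wash slide in the last 26 rows and last 61 columns held 10 of the 337 (2.97%), against 5.80% of unflagged spots. On that slide 28.2% (female channel) and 31.8% (male channel) of the corner's spots had a local background over 125% of the channel's median. Outside the corner 0.184% (female channel) and 0.402% (male channel) of the spots were over this level. Over the whole array it was 5 (1.48%, female channel) and 4 (1.19%, male channel) of the 337 spots. The shares of the set cover the corner and the rest of the array, so they are not compared with the share in the corner alone.

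**Figure D5:**
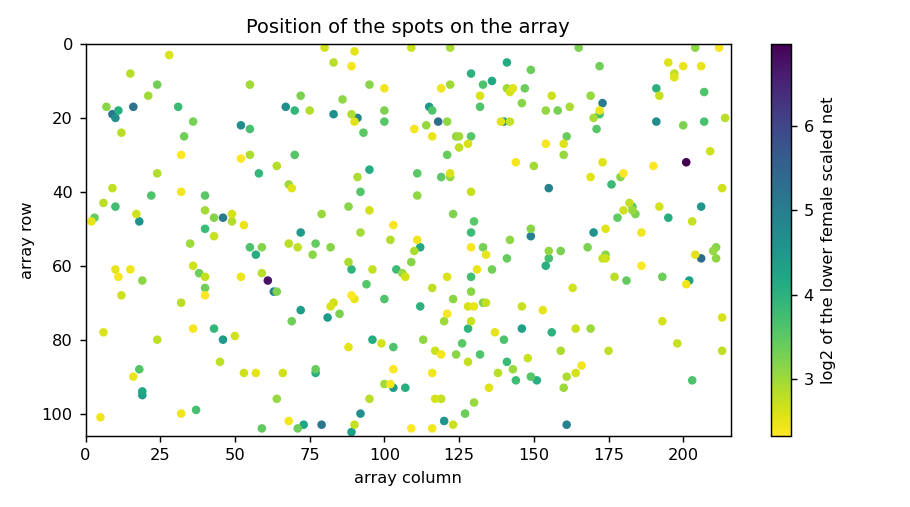
Row and column of each of the 337 spots on the array, coloured by the log2 of the lower of the 2 female scaled net signals. Spots are found in 99 of 105 rows, and the pair of darkest points are row 32, column 201 and row 64, column 61.

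Local background entered the selection only as the subtracted term, and neighbouring spots did not enter it. The median local background at the 337 spots was 24.3 and 41.3 in females with and without wash and 39.7 and 22.8 in males, against 24.3 and 41.1 in females and 39.9 and 23.1 in males over all unflagged spots. The 648 unflagged spots next to them in the same row had a median scaled net of 0.967 and 0.912 in females with and without wash, against 0.979 and 0.972 over all spots outside the set. In males they had 0.906 and 0.913, against 1.02 and 1.02 outside the set, a larger gap than in females. The evenness of the pixels followed brightness. The ratio of mean to median pixel intensity had a median of 0.824 and 0.826 at the 337 spots in females with and without wash, close to 0.829 and 0.817 at the other female-bright spots, and 1.07 and 0.966 in males, where all unflagged spots had 1.07 and 0.955. No median pixel of the set reached 65000, the level taken as saturated.

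The spots just inside the female limit were row 104, column 109, row 30, column 32 and row 33, column 190, with 5.005, 5.005 and 5.07 in females with wash, and 7.75, 8.98 and 7.90 without. Just outside were row 77, column 10, row 86, column 112 and row 30, column 40, with 4.98, 4.97 and 4.94 with wash, and 6.65, 7.63 and 8.82 without. Just inside the male limit were row 39, column 69 and row 18, column 100, with 1.247 and 1.246 in males with wash, and row 71, column 146, with 1.24 in males without wash. Just outside were row 104, column 117, row 50, column 71 and row 34, column 106, with 1.252, 1.259 and 1.26 in males with wash. The rule without the with-wash female sample took 524 spots, and without the other female sample 340. Without the with-wash male sample it took 462, and without the other male sample 362. With median in place of mean pixels 261 of the 337 met the limits, along with 167 others.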

How the data were processed

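Each of the authors' deposited scanner files covers 1 dye channel and gives, per the file headers, pixel intensity summaries (mean, median, mode) of every spot and of its surroundings, before any subtraction. The deposited files also carry a flag score per spot, per the file headers. The values in the authors' deposited table matched the natural log (ln) of the difference of mean spot and mean background intensity, without scaling. For the fit on that table they were turned to log2 and centred on each sample's median. Image software, array maker and annotation are not named in the labels or headers.

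Spots flagged on either slide (647) were left out. For the fit, mean intensities were corrected with normexp (offset 50), normalized by loess within and Aquantile between slides, and log2 channel values were fitted in limma 3.58.1 (R 4.3.3) with sex and slide, or sex and dye, as terms and an intensity trend. P-values are two-sided, Benjamini-Hochberg adjusted over 21928 spots, and rest on 1 residual degree of freedom per spot (2.86 with the prior). Both fit and selection were run on simulated data with planted differences, as a check of the code only. Nothing about the 4 samples is read from it. The 2 sexes of a wash state had the same flag at every spot and were taken to share a slide, which is the pairing and the block.

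The set, limits and named spots (the 10 brightest, 10 largest differences, 5 most shifted between female samples each way, and 3 nearest each limit on each side) were chosen with earlier results of these data known. Of the 5 most shifted each way the first 2 are printed. Spots at the bound were chosen after their values were seen. Gene lists could not be used, as spots carry no names. The number of arrays limits the precision.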

Additional observations from a re-analysis of the deposited data

How the results depend on the processing

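The number of spots in the set was 337. It was 513 with limits of 4 and 1.5, 203 with limits of 6 and 1, and 340 to 524 when each sample was left out of the rule. With median pixels it was 428, of which 261 were shared with the 337. The mirrored set held 49 spots, and 153, 12 and 104 with limits of 4 and 1.5, limits of 6 and 1, and median pixels. Below background in both males were 6 spots, but 210 at a limit of 3 times background and 0 at 1.5 times, below which no unflagged spot of the without-wash male channel lay (lowest ratio 1.55). The limit of 3 is near the median ratio of all unflagged spots in males, 3.22 with wash and 3.13 without. The median male level with wash was 0.732, and 0.901 with median pixels. The median female minus male difference (log2) was 3.35 and stayed positive: 4.30 with plain background subtraction, 2.98 with median scaling only, 3.03 with quantile normalization, 2.79 with no normalization, 3.60 with median pixels, 3.95 in the authors' value table and 3.21 to 3.50 with a sample left out. Over all spots 7322 were called for sex, 4683 with no replicate block, 50 with no normalization (22 of the 337, 331 at an unadjusted p under 0.05) and 2783 to 4161 with a sample left out. All 337 were called under the 12 other alternatives. No block was fitted to the lone samples left, which were assumed to vary like the others. For the slide term there were 0 calls, against 2701 when only medians were scaled (0 of the 337) and 2100 in the value table (2 of the 337, both lower with wash). The dye term had 468 calls, and 0 with no normalization. None of the 26 named spots changed direction, and 15 of them lost the call for sex with no normalization. The cause of these changes was not tested.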
